A study of Arabidopsis thaliana with 9 samples.

Results

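The histone genes examined here are 38 Arabidopsis loci out of 33557 in the deposited tables, chosen by a list of locus identifiers. The rule used no measured value, but the list was drawn up with earlier results of these data known. The 38 comprise 5 genes for H3.1, 8 for H4, 4 for canonical H2A, 7 for H2B, 2 for H2A.X, 3 for H2A.W, 3 for H2A.Z, 3 for H3.3 and 3 for the linker histone H1. H3.1, H4, canonical H2A and H2B are called replication-linked below (24 genes), and H2A.Z and H3.3 replacement variants (6 genes). All 38 were present in every library, the lowest value being 7.72 FPKM (fragments per kilobase of transcript, scaled to the library's mapped fragments), so all passed the minimum mean of 1 FPKM.

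Whole Col-0 seedlings were compared in 3 groups of 3 libraries, which the study's design text calls biological replicates. All plants were 14 days old on solid MS medium and received liquid MS medium for 12 h in the light. The wild-type controls and the mrpl1-1 mutants received it without drug, and wild-type plants of the doxycycline group received it with 25 µg/ml doxycycline, an antibiotic that blocks translation on bacterial-type ribosomes and so also in plant organelles. MRPL1 encodes a ribosomal protein of the L1 family. The labels do not give the kind of mutation in mrpl1-1.

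DNA in the nucleus is wound around octamers of H2A, H2B, H3 and H4, and H1 binds the linker between them. Genes for the canonical histones and H3.1 are transcribed mostly in S phase, when new DNA has to be packaged, so their messages mark dividing tissue. H3.3 and H2A.Z are also made and exchanged outside S phase, H2A.W marks plant heterochromatin, and H2A.X is phosphorylated at DNA breaks. Plant histone messages carry polyA tails, so the polyA selection used here keeps them.

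Sequence upstream of the annotated starts is shown first, because it is a property that the choice of the genes did not use. The histone octamer CGCGGATC and the hexamer ACGTCA are promoter elements described for plant histone genes. Each was searched on both strands from 250 bases before to 50 bases after the RefSeq gene start in TAIR10.1. The lines below give the match in capitals with up to 20 bases on either side, cut at the gene start, on the strand of the gene from 5′ to 3′. They come from the most abundant H3.1, H4, canonical H2A and H2A.W genes, the next 2 H3.1 genes, and 4 H2B genes and 1 H3.3 gene with the hexamer.
AT5G65360, H3.1, chr5:26120680-26120727, minus strand: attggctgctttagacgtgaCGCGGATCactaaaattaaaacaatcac
AT5G10400, H3.1, chr5:3271050-3271097, minus strand: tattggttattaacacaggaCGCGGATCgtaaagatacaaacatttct
AT1G09200, H3.1, chr1:2972397-2972444, minus strand: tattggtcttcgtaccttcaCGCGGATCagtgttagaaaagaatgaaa
AT5G59690, H4, chr5:24051383-24051430, plus strand: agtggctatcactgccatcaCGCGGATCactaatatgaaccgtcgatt
HTA10 (AT1G51060), H2A, chr1:18926717-18926764, plus strand: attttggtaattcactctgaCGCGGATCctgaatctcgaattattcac
HTA6 (AT5G59870), H2A.W, chr5:24116309-24116356, minus strand: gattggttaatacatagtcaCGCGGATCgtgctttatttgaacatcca
HTB2 (AT5G22880), H2B, chr5:7652884-7652929, minus strand: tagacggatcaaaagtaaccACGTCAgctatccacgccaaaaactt
HTB9 (AT3G45980), H2B, chr3:16898144-16898189, minus strand: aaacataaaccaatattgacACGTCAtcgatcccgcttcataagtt
HTB11 (AT3G46030), H2B, chr3:16914194-16914239, minus strand: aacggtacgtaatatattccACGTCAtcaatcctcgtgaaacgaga
AT3G53650, H2B, chr3:19889181-19889226, plus strand: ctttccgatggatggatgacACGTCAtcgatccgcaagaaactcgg
AT5G10980, H3.3, chr5:3473606-3473651, minus strand: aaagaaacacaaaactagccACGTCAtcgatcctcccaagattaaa

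The octamer was present in 10 of the 38 histone windows and in 40 of all 27560 promoter windows of the annotation (0.145%). It occurred in 3 of 5 H3.1, 2 of 8 H4 and 2 of 4 canonical H2A genes, in HTA6, in the H3.3 gene AT4G40040 and in the H1 gene AT1G06760, and in none of the 7 H2B genes. The 10 genes carried 12 matches, all upstream of the start, of which 8 read CGCGGATC on the gene's own strand. The 3 H3.1 genes with the octamer were also the 3 most abundant H3.1 genes. Over all members the wild-type mean had a median of 231 FPKM with the octamer and 76.3 FPKM without it, and the ranges overlapped (41.4 to 374 and 15.0 to 407 FPKM).

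The hexamer was present in 11 histone windows and in 9.17% of all windows. All 7 H2B genes had it, 6 of them upstream of the start and HTB4 at position 41 after the start. The others were the H3.1 genes AT3G27360 and AT5G10400, the H4 gene AT1G07820, whose match spans the start, and the H3.3 gene AT5G10980. One gene, AT5G10400, had both elements, and no octamer match overlapped a hexamer match. The wild-type mean had a median of 168 FPKM with the hexamer and 86.0 FPKM without it, with overlapping ranges (23.6 to 330 and 15.0 to 407 FPKM). In the printed windows of HTB2, HTB9, HTB11, AT3G53650 and AT5G10980 the hexamer is followed 3 bases later by ATC, a spacing noticed after the sequences were read. The pattern ACGTCANNNATC occurred in 5 of 7 H2B windows, 7 of 38 histone windows and 65 of all windows (0.236%), which is 2.57% of the windows with the hexamer.

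The E2F-type sequence TTTCCCGC was in none of the 38 windows and in 0.795% of all windows, and the telo box AACCCTA was in 2 (GAMMA-H2AX and HTA8) against 8.81% of all. TATAAA was in 21 histone windows and in 52.1% of all windows. The wild-type mean had a median of 96.0 FPKM with TATAAA and 147 without it, and of 29.7 with the telo box and 106 without it. Both strands were searched for each sequence. A match is a sequence description and was not compared with binding data, and no match means only that these letters are not in the window.

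**Figure D1:**
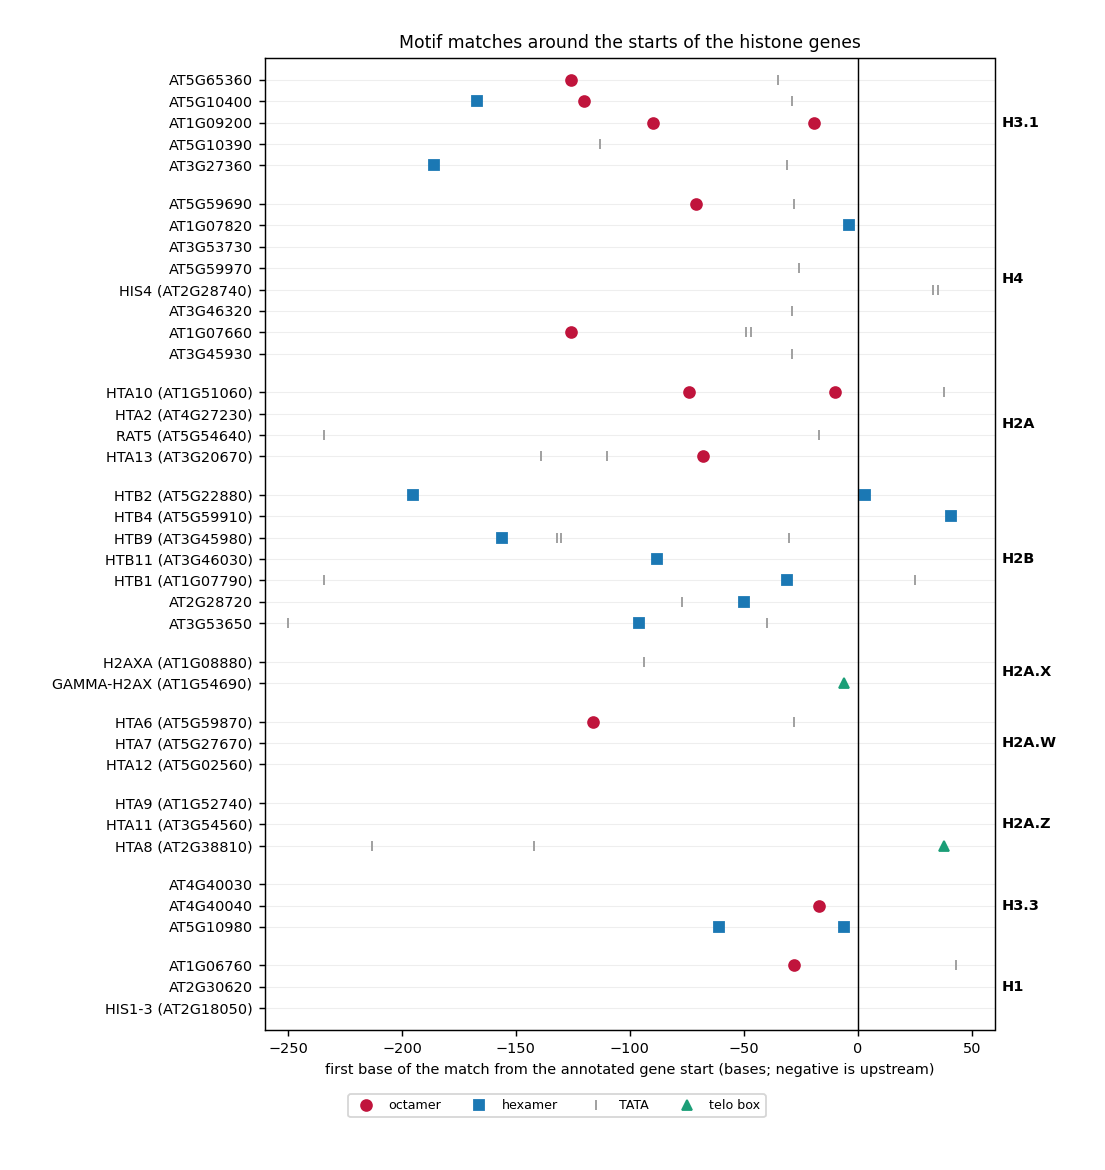
Positions of the octamer, the hexamer, TATAAA and the telo box in the 38 histone windows, in bases from the annotated gene start (negative is upstream), with genes grouped by histone type and ordered by wild-type level. The octamer sits upstream in 3 H3.1 genes and in no H2B gene, and the hexamer is found in all 7 H2B genes.

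Levels of the libraries as a whole bear on every comparison and are given once. Low FPKM values fall on steps that correspond to between 3.14 and 8.46 M reads per library, an approximate figure, and the histone genes then rest on about 27.1 to 4019.7 reads each per library. FPKM values of mrpl1-1 are given on the scale of the doxycycline table (divided by 0.94058). MRPL1 (AT2G42710) measured 20.7, 19.1 and 26.7 FPKM in wild type, 22.7, 22.1 and 22.3 with doxycycline and 20.8, 12.8 and 19.8 in the libraries labelled mrpl1-1. The groups overlap, so the level of the transcript gives no check of that label. Green shoot and root markers were detected in every library, and the summed level of 3 seed storage or 3 pollen markers never exceeded 0.0838 FPKM.

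Histone levels set 2 libraries apart, replicate 3 of wild type and replicate 2 of mrpl1-1. Each gene's log2(FPKM + 1) was compared with its own mean over the 9 libraries. The median deviation of the 38 genes was 0.20 in wild-type replicate 3 and 0.42 in mrpl1-1 replicate 2, and lay between -0.18 and 0.081 in the other 7. FPKM summed over all genes was 1026050 in mrpl1-1 replicate 2 and 730782 to 808057 in the other libraries. As a share of that sum, histone genes made up 0.726% in mrpl1-1 replicate 2 and 0.765% in wild-type replicate 3. Wild-type replicate 3 also had the lowest approximate depth, 3.14 M reads, beside 3.24 M in mrpl1-1 replicate 1. No share over all genes was computed for the counts that follow. Wild-type replicate 3 was the highest wild-type library for 26 of 38 genes, and mrpl1-1 replicate 2 the highest mutant library for 26. The medians of the 4 classes below are therefore also given without these libraries; the medians of single types are given with all libraries only.

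**Figure D2:**
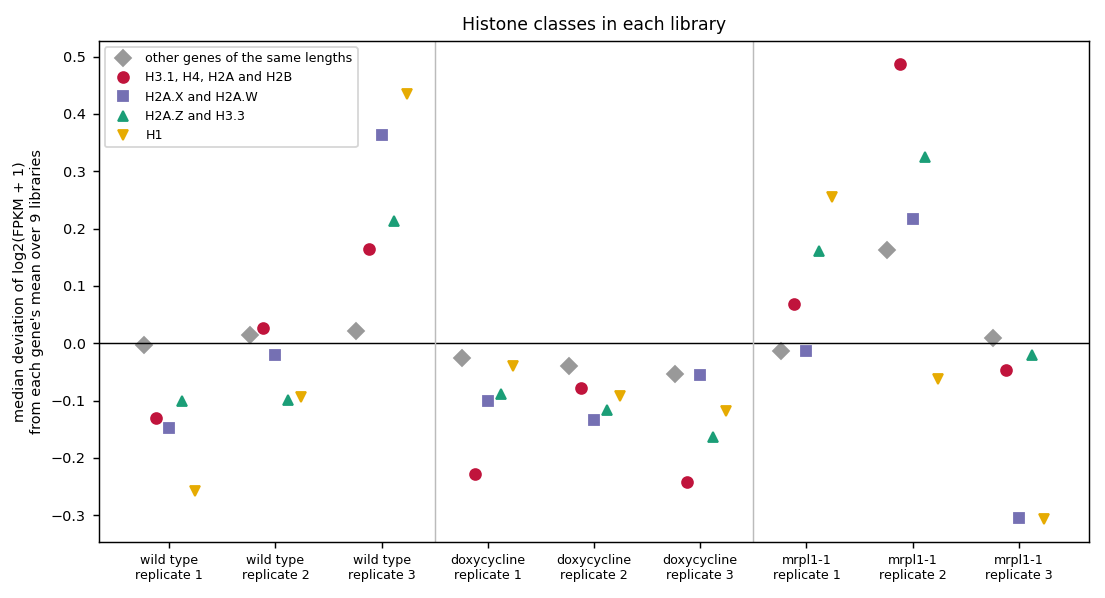
Median deviation of log2(FPKM + 1) from each gene's mean over the 9 libraries, for 4 histone classes and for other genes of the same transcript lengths, in each library. Wild-type replicate 3 and mrpl1-1 replicate 2 lie above the other libraries for the replication-linked genes, and all 3 doxycycline libraries lie below 0.

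Histone messages were abundant. The wild-type mean of every one of the 38 genes lay above the median of all tested genes (11.0 FPKM), and the median over the members was 99.5 FPKM. FPKM is per transcript length, so levels are compared between genes on that scale. Together the 38 genes made up between 0.623% and 0.765% of all FPKM in a library. A difference in the share of dividing cells and one in histone RNA per cell cannot be told apart in whole seedlings.

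The 5 H3.1 genes encode 1 identical protein and ranged from 30.9 to 269 FPKM in the wild-type mean. The most abundant, AT5G65360, measured 246, 253 and 309.6 FPKM in wild type, 238, 237 and 236 with doxycycline and 319, 479.8 and 237 in mrpl1-1. Its 3 doxycycline values lay close together and below all wild-type values, while mrpl1-1 spanned the widest range. It supplied 35.3% ± 2.65 (SD, n = 3) of wild-type H3.1 FPKM. The lowest H3.1 gene, AT3G27360, measured 22.3, 29.4 and 41.0 FPKM in wild type, 22.4, 28.6 and 31.7 with doxycycline and 32.7, 69.3 and 30.7 in mrpl1-1. All groups overlap for it, and mrpl1-1 replicate 2 is the highest of the 9.

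The 8 H4 genes also encode 1 identical protein and ranged from 48.9 to 374 FPKM. The most abundant, AT5G59690, supplied 34.4% ± 3.57 (SD, n = 3) of wild-type H4 FPKM and measured 399.7, 409 and 315 FPKM in wild type, 406, 444 and 432 with doxycycline and 449, 446 and 324 in mrpl1-1. Its lowest wild-type value was in replicate 3, as for 4 of the 8 H4 genes. AT3G53730 measured 147, 169.8 and 123 FPKM in wild type, 110.3, 135 and 133 with doxycycline and 206, 221 and 171 in mrpl1-1. All mrpl1-1 values of AT3G53730 lay above all wild-type and all doxycycline values. The lowest H4 gene, AT3G45930, measured 52.9, 46.3 and 47.5 FPKM in wild type, 50.1, 54.4 and 51.4 with doxycycline and 40.6, 51.7 and 55.5 in mrpl1-1, with all groups overlapping.

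Among canonical H2A genes, HTA10 (AT1G51060) was the most abundant at 106, 116 and 113 FPKM in wild type, 104, 124 and 101 with doxycycline and 107, 85.3 and 133 in mrpl1-1. Its groups overlap. HTA13 (AT3G20670) was the lowest, at 44.3, 40.3 and 39.6 FPKM in wild type, 32.8, 33.5 and 31.5 with doxycycline and 39.3, 31.8 and 46.3 in mrpl1-1. Every doxycycline value of HTA13 lay below every wild-type value, and the mutant overlapped with both. HTA2 and RAT5 lay between them, at 61.4 and 60.1 FPKM in the wild-type mean. RAT5 is the canonical H2A gene named for its role in Agrobacterium transformation.

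The 7 H2B genes encode 7 different proteins and spread further, 14.0-fold between the highest and the lowest wild-type mean. HTB2 (AT5G22880) measured 341, 357 and 292 FPKM in wild type, 298, 323 and 320.1 with doxycycline and 308, 510.1 and 295 in mrpl1-1. AT3G53650 measured 16.4, 19.98 and 34.5 FPKM in wild type, 17.4, 12.8 and 11.7 with doxycycline and 8.77, 19.6 and 13.3 in mrpl1-1. HTB2 overlapped between all groups, with mrpl1-1 replicate 2 standing above the rest, and the high wild-type value of AT3G53650 came from replicate 3.

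H2AXA (AT1G08880) measured 86.6, 101 and 112 FPKM in wild type, 95.8, 96.9 and 95.3 with doxycycline and 144, 161 and 81.9 in mrpl1-1. GAMMA-H2AX (AT1G54690), the other H2A.X gene, measured 40.1, 42.5 and 50.7 FPKM in wild type, 37.1, 40.3 and 32.6 with doxycycline and 33.3, 37.1 and 41.7 in mrpl1-1. Neither separated the groups. Of the heterochromatic H2A.W genes, HTA6 (AT5G59870) supplied 84.2% ± 4.71 (SD, n = 3) of wild-type H2A.W FPKM. HTA6 measured 244, 292 and 529.6 FPKM in wild type, 254, 266 and 303 with doxycycline and 285, 546 and 255 in mrpl1-1. Its wild-type replicate 3 and mrpl1-1 replicate 2 values are set apart from the other 7, which lie between 244 and 303 FPKM. HTA12 (AT5G02560) was the lowest, at 18.3, 20.1 and 26.6 FPKM in wild type, 19.0, 17.8 and 23.1 with doxycycline and 26.7, 19.8 and 15.2 in mrpl1-1, and HTA7 lay between them at 39.3 FPKM.

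Among replacement variants, the H2A.Z gene HTA9 (AT1G52740) supplied 73.5% ± 1.26 (SD, n = 3) of wild-type H2A.Z FPKM. HTA9 measured 149, 135 and 175 FPKM in wild type, 159.9, 150.2 and 149.6 with doxycycline and 161, 288 and 148 in mrpl1-1. HTA8 (AT2G38810) had the lowest wild-type mean of all 38 genes, with 16.4, 14.3 and 14.3 FPKM in wild type, 15.2, 20.7 and 12.5 with doxycycline and 19.97, 7.72 and 20.4 in mrpl1-1. Replicate 2 of mrpl1-1, which was the highest mutant library for HTA9, was the lowest for HTA8.

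The 3 H3.3 genes encode 1 identical protein, which differs from H3.1 at 4 residues in the translated annotation. AT4G40030 had the highest wild-type mean of the 38 genes, with 364, 349 and 508 FPKM in wild type, 339, 332 and 351 with doxycycline and 352, 456 and 391 in mrpl1-1. AT4G40040, whose annotation ends 42 bases from it on the same strand, measured 369, 342 and 287 FPKM in wild type, 351, 333 and 316 with doxycycline and 363, 348 and 315 in mrpl1-1. AT5G10980 measured 204, 221 and 505 FPKM in wild type, 243, 231 and 234 with doxycycline and 308, 359 and 211 in mrpl1-1. Wild-type replicate 3 was the highest of the 9 for AT4G40030 and AT5G10980 and the lowest of the 9 for AT4G40040. H3.1 made up between 40.3% and 45.0% of the summed H3.1 and H3.3 FPKM in 8 libraries and 51.1% in mrpl1-1 replicate 2.

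Of the linker histones, AT1G06760 measured 188, 210.3 and 248 FPKM in wild type, 211, 188 and 202 with doxycycline and 287, 368 and 176 in mrpl1-1. AT2G30620 measured 81.0, 75.6 and 101 FPKM in wild type, 80.1, 70.1 and 68.8 with doxycycline and 59.9, 71.6 and 71.1 in mrpl1-1. HIS1-3 (AT2G18050), the H1 variant known to be induced by drought, measured 21.9, 25.9 and 42.0 FPKM in wild type, 27.6, 39.99 and 31.7 with doxycycline and 34.1, 18.5 and 22.8 in mrpl1-1. All mrpl1-1 values of AT2G30620 lay below all wild-type values, and the other H1 comparisons between groups overlapped.

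**Figure D3:**
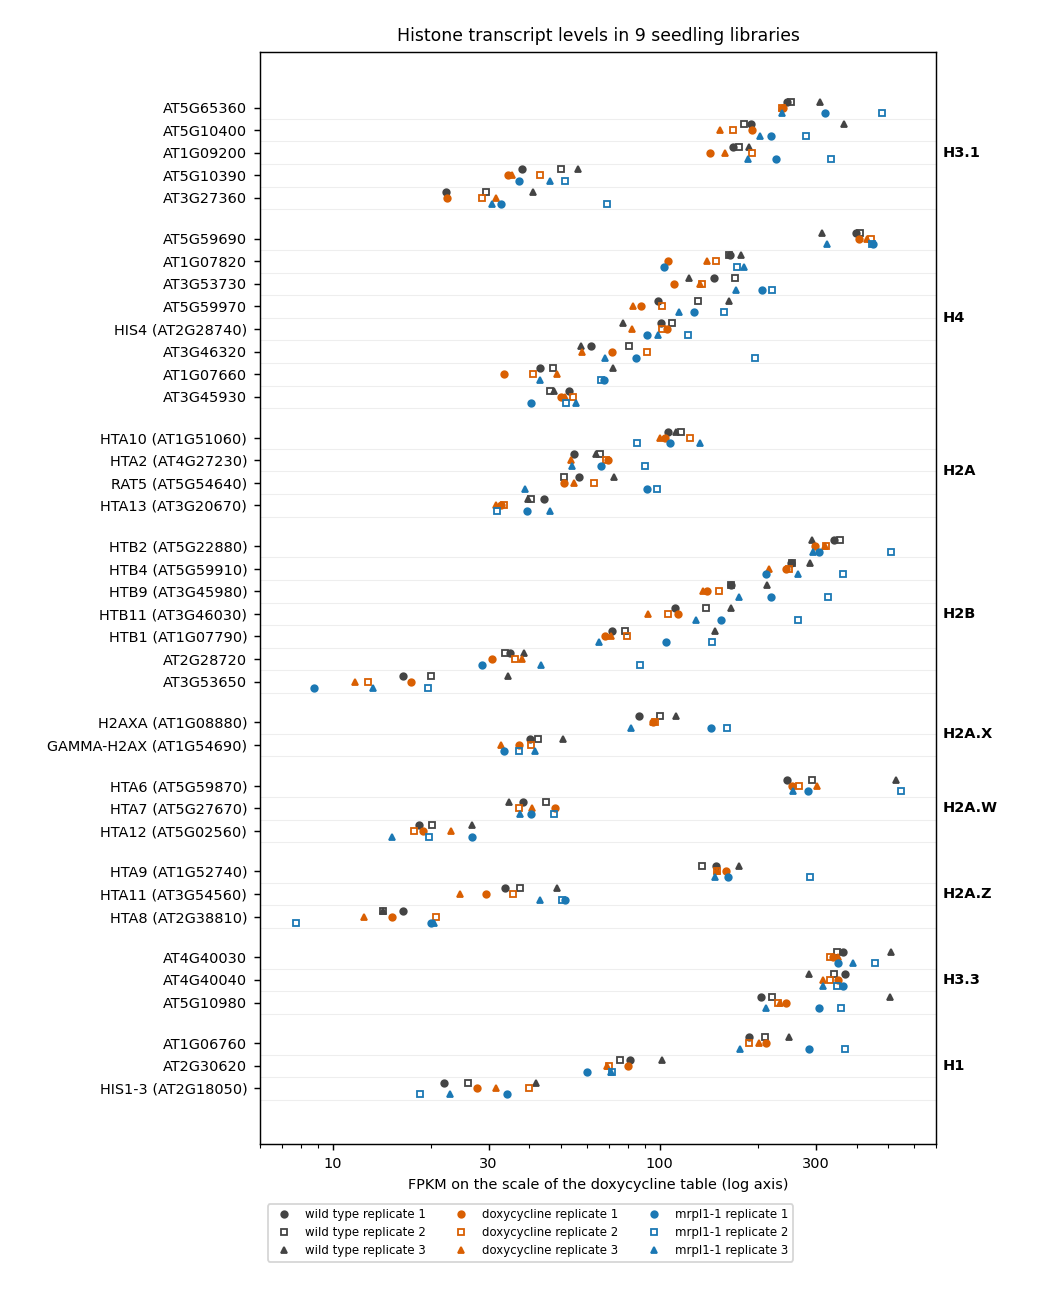
FPKM of each of the 38 histone genes in the 9 libraries (log axis), grouped by type and ordered by wild-type mean, with colours for groups and symbols for replicates. Levels run from 7.72 to 546 FPKM, and wild-type replicate 3 and mrpl1-1 replicate 2 are often the outlying symbols.

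Doxycycline was compared with untreated wild type to ask which transcripts differ after 12 h of the drug. No histone gene passed the threshold (limma, adjusted p under 0.05 over 19073 genes), against 35 of all genes (0.184%). At an unadjusted p under 0.05, the histone count was 6 on the lower side (4.65% of all genes) and 0 on the higher side (3.84%). The 6, named because of their values, were the canonical H2A gene HTA13, the H4 genes AT5G59970 and AT1G07820, and the H2B genes HTB9, HTB11 and AT3G53650, all of them replication-linked. All doxycycline values lay below all wild-type values for 5 of 38 genes (7.48% of all genes), and above them for 0 (8.51%).

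The smallest p belonged to HTA13, with a log2 fold change of -0.33 ± 0.098 (SE; 95% interval -0.56 to -0.10; adjusted p = 0.446). On the higher side it belonged to AT5G59690, with 0.20 ± 0.13 (SE; 95% interval -0.11 to 0.51; adjusted p = 0.723). AT5G59970 gave -0.50 (95% interval -0.94 to -0.057), AT1G07820 -0.36 (95% interval -0.70 to -0.028) and AT3G53650 -0.67 (95% interval -1.31 to -0.024) on the log2 scale. HTB9 gave -0.34 (95% interval -0.64 to -0.036) and HTB11 -0.40 (95% interval -0.78 to -0.012).

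By class, 28 of 38 genes lay on the lower side (49.6% of all genes did). The median log2 fold change was -0.17 for the replication-linked genes, -0.11 for H2A.X and H2A.W, -0.11 for H2A.Z and H3.3 and -0.097 for H1, beside 0.0025 for all tested genes. Within the replication-linked genes it was -0.34 for H2B, -0.18 for H3.1, -0.097 for H4 and -0.059 for canonical H2A. Of the replacement variants, 3 of 6 were lower and 3 higher, from HTA11 at -0.41 (95% interval -0.83 to 0.020) to HTA8 at 0.072 (95% interval -0.36 to 0.50). The H1 genes gave -0.097 (95% interval -0.40 to 0.21) for AT1G06760, -0.22 (95% interval -0.55 to 0.097) for AT2G30620 and 0.18 (95% interval -0.40 to 0.76) for HIS1-3. No difference between classes was tested, and the 95% intervals of 35 of 38 genes lay within a 2-fold change in either direction.

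Transcript length moved with this comparison. Histone transcripts are 644 to 1666 nt long in the annotation (median 844.5), against a median of 1722 nt over all tested genes. The 8230 other genes of that length range had a median log2 fold change of -0.051, with 58.1% on the lower side, and longer genes had 0.040. After a correction of each library for a smooth trend on length, the class medians were -0.080, -0.089, -0.049 and -0.037 in the order above, and 0 of 38 genes had an unadjusted p under 0.05 (3.71% of all genes on the lower side and 3.89% on the higher). Without wild-type replicate 3 the medians were -0.11, 0.034, -0.011 and 0.0093, and 3 lower genes (6.30% of all genes) and 1 higher gene (5.41%) had an unadjusted p under 0.05. What part length plays in these values was not tested beyond that correction.

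**Figure D4:**
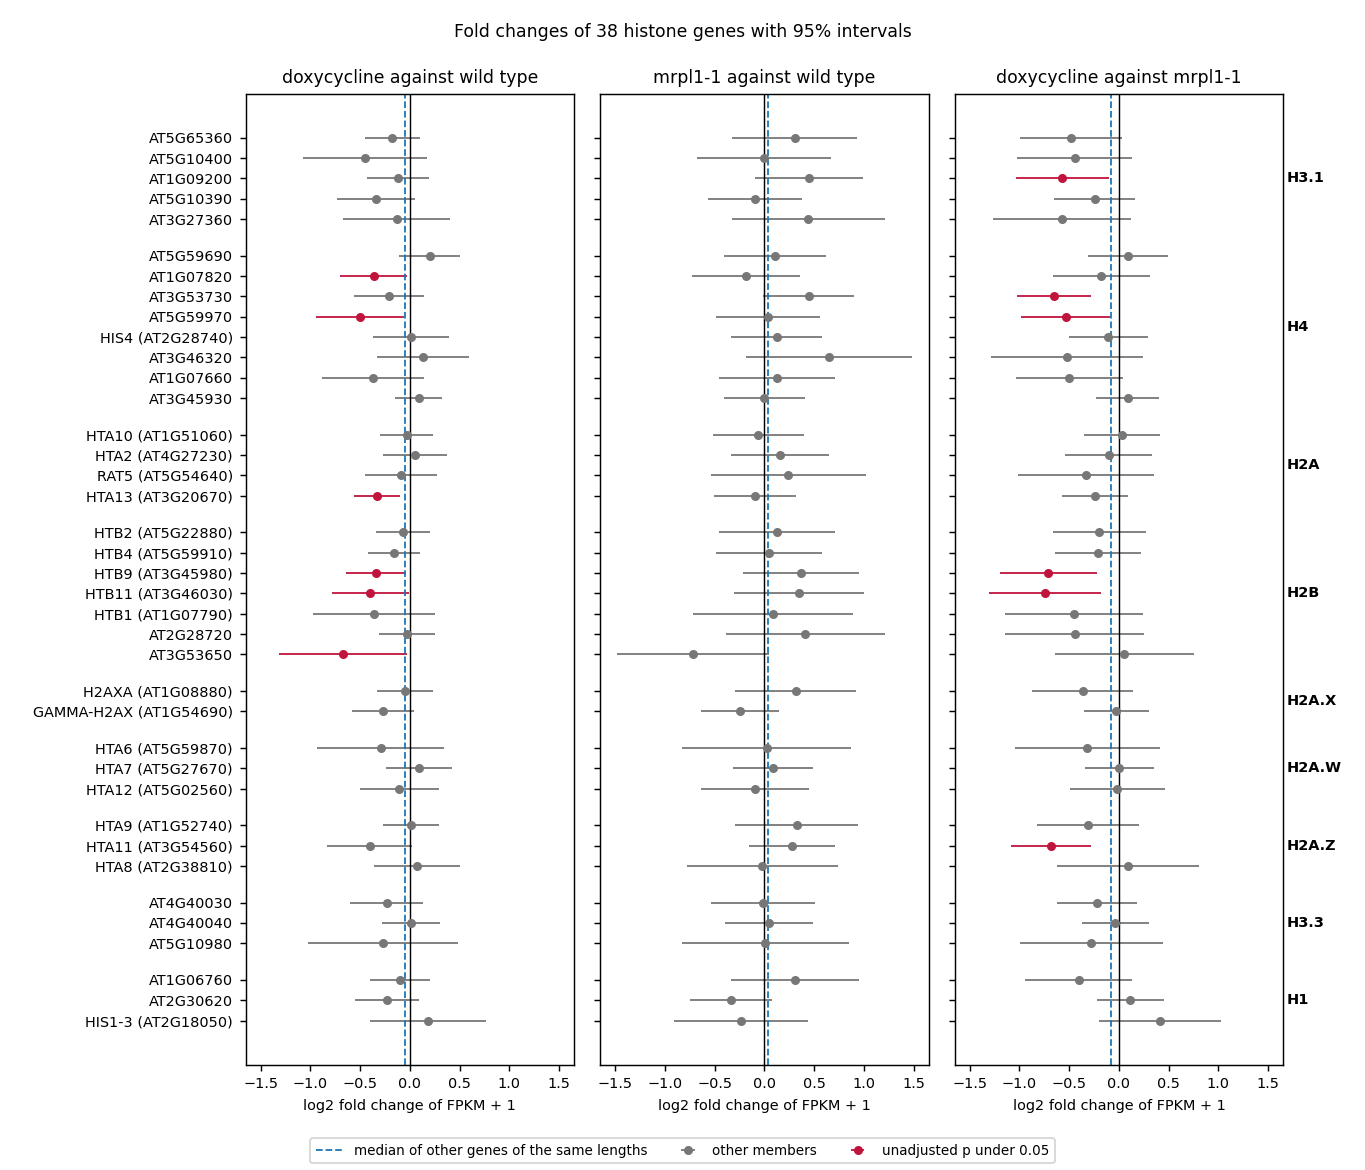
Log2 fold changes of FPKM + 1 with 95% intervals for the 38 histone genes in the 3 comparisons, with red for an unadjusted p under 0.05 and a dashed line for the median of other genes of the same transcript lengths. Doxycycline has 6 red genes on the lower side against wild type and 6 against mrpl1-1, and mrpl1-1 against wild type has none.

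Genes that act with histones in replication and chromatin assembly were read in the same fit. None of the DNA replication genes (23 of 24 tested), cell division genes (19 of 20) or histone chaperone and chromatin assembly genes (19 of 19) was called with doxycycline. Their median log2 fold changes were -0.040, -0.093 and 0.084, with 15, 12 and 7 genes on the lower side. PCNA1, the sliding clamp of DNA polymerase, had the smallest p among DNA replication genes, at 19.3, 23.6 and 34.8 FPKM in wild type and 20.7, 17.7 and 17.2 with doxycycline, and a log2 fold change of -0.43 (adjusted p = 0.637). CDKB1;1, a cyclin-dependent kinase of dividing cells, had it among cell division genes, at 3.01, 4.15 and 4.95 FPKM in wild type and 1.81, 3.50 and 2.36 with doxycycline, and a log2 fold change of -0.51 (adjusted p = 0.626). Both genes overlapped between the groups, and their higher wild-type values include replicate 3.

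The gene nearest to the threshold in these lists was SEF (AT5G37055; SWC6), a subunit of the SWR1 complex that places H2A.Z into chromatin. SEF measured 9.70, 10.2 and 12.2 FPKM in wild type, 4.56, 4.45 and 2.80 with doxycycline and 6.59, 6.54 and 8.08 in mrpl1-1. All doxycycline values lay below all mrpl1-1 values, and those below all wild-type values. The log2 fold change was -1.26 (adjusted p = 0.0754) with doxycycline, -0.53 (adjusted p = 0.931) in mrpl1-1 and -0.72 (adjusted p = 0.170) for doxycycline against mrpl1-1, and the comparisons with wild type share the wild-type libraries. With array weights the doxycycline value was -1.15 and passed the threshold (adjusted p = 0.031), and over all alternatives its adjusted p ranged from 0.031 to 0.265. The H2A.Z genes themselves were not called.

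The other histone genes, outside the 38, were mostly near 0. Only 5 of these 11 passed the minimum mean, and 0 were called in any comparison. AT2G37470, an H2B gene, measured between 71.5 and 187 FPKM in the 9 libraries, with mrpl1-1 replicate 2 the highest. HTA4 had the smallest p with doxycycline, at 2.43, 1.60 and 0.989 FPKM in wild type and 0.651, 0.675 and 0.849 with doxycycline, and a log2 fold change of -0.60 (adjusted p = 0.606). HTR12, the centromeric H3, had it in mrpl1-1, at 3.22, 3.07 and 2.03 FPKM in wild type and 3.59, 3.53 and 3.91 in mrpl1-1, and a log2 fold change of 0.32 (adjusted p = 0.931). AT2G37470 had it for doxycycline against mrpl1-1, at -0.41 (adjusted p = 0.645).

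Root markers are given beside the histone values, and 3 of 4 separated downward with the drug. The summed level of PYK10, RHS13, EXPA7 and PER57 was 1297 to 1628 FPKM in wild type, 1133 to 1329 with doxycycline and 1389.6 to 1928 in mrpl1-1, and none was at 0. All 4 were lower with doxycycline than in wild type, and RHS13, a root hair gene, was called at -1.67 (adjusted p = 0.00582). For RHS13, EXPA7 and PER57 every doxycycline value lay below every wild-type value. PYK10, the most abundant, overlapped, at 1477, 1236 and 1139 FPKM in wild type and 1122, 1047 and 1251 with doxycycline. The summed level of 4 green shoot markers was 12385 to 15051 FPKM in wild type, 12462 to 14557 with doxycycline and 12819 to 23083 in mrpl1-1, and 0 of them were called. The part of root tissue in the histone values was not tested.

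Untreated mrpl1-1 was compared with untreated wild type to ask what the genotype changes without the drug. Here too no histone gene was called (limma, adjusted p under 0.05 over 18994 genes), against 7 of all genes (0.0369%). At an unadjusted p under 0.05, the histone count was 0 on the lower side (1.63% of all genes) and 0 on the higher side (2.83%). The libraries separated for AT3G53730, higher in the mutant (5.09% of all genes separate upward), and for the H1 gene AT2G30620, lower (5.04%).

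AT3G53730, the H4 gene with the smallest p on the higher side, had a log2 fold change of 0.44 ± 0.20 (SE; 95% interval -0.010 to 0.90; adjusted p = 0.931). The H2B gene AT3G53650 had the smallest p on the lower side, with -0.72 ± 0.34 (SE; 95% interval -1.49 to 0.045; adjusted p = 0.931). Both intervals contain 0. The median was 0.12 for the replication-linked genes, 0.023 for H2A.X and H2A.W, 0.028 for H2A.Z and H3.3 and -0.23 for H1, beside -0.00081 for all tested genes. On the lower side were 12 of 38 genes (50.1% of all genes). Of the 8230 other genes in the histones' length range, 44.3% were lower, with a median log2 fold change of 0.037. H3.1 had a median of 0.30, from AT5G10390 at -0.094 (95% interval -0.57 to 0.38) to AT1G09200 at 0.45 (95% interval -0.091 to 0.99). The H3.3 genes AT4G40030, AT4G40040 and AT5G10980 gave -0.013 (95% interval -0.53 to 0.51), 0.047 (95% interval -0.40 to 0.49) and 0.0095 (95% interval -0.83 to 0.85). For H1 the values were 0.31 (95% interval -0.34 to 0.95) for AT1G06760, -0.34 (95% interval -0.75 to 0.076) for AT2G30620 and -0.23 (95% interval -0.90 to 0.43) for HIS1-3.

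These estimates depended on the libraries that stood apart. Without wild-type replicate 3 and mrpl1-1 replicate 2 the class medians were 0.091, 0.012, 0.19 and 0.18, so that of H1 was on the other side of 0. At an unadjusted p under 0.05 there were then 1 gene lower (2.18% of all genes) and 2 higher (3.21%). Without mrpl1-1 replicate 3 there were 6 higher (4.95% of all genes) and 0 lower (3.49%). The replicate spread was wide: the median coefficient of variation over the 38 genes was 27.8% in mrpl1-1, 15.4% in wild type and 10.8% with doxycycline. Other genes of the same lengths and at least 15.0 FPKM in wild type had 20.7%, 15.6% and 9.14%. Intervals of 32 of 38 genes lay within a 2-fold change in either direction. With correction for length the class medians were 0.054, -0.046, -0.024 and -0.29.

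Of the DNA replication genes, 16 of 23 were on the lower side in mrpl1-1 (median -0.068), and CDT1A, which licenses replication origins, had the smallest p at -0.40 (adjusted p = 0.931). Its values were 5.12, 7.31 and 6.48 FPKM in wild type and 3.99, 4.23 and 5.31 in mrpl1-1, which overlap. Of the cell division genes 9 of 19 were lower (median 0.00040). KNOLLE, the syntaxin of the forming cell plate, had the smallest p there, at 17.2, 17.4 and 13.6 FPKM in wild type and 19.6, 23.4 and 18.8 in mrpl1-1 and a log2 fold change of 0.34 (adjusted p = 0.931). The chaperone and assembly genes had 9 of 18 lower (median -0.0016). None of these was called.

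Doxycycline-treated wild type was compared directly with mrpl1-1 to ask where drug and mutant differ. No histone gene was called (limma, adjusted p under 0.05 over 19105 genes), against 70 of all genes (0.366%). At an unadjusted p under 0.05, the histone count was 6 on the side lower with doxycycline (6.53% of all genes) and 0 on the higher side (4.70%). They were, named for their values, the H4 genes AT3G53730 and AT5G59970, the H2B genes HTB9 and HTB11, the H3.1 gene AT1G09200 and the H2A.Z gene HTA11. The groups separated downward for 7 of 38 genes (9.29% of all genes) and upward for 0 (9.72%).

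The smallest p belonged to AT3G53730, with a log2 fold change of -0.65 ± 0.17 (SE; 95% interval -1.03 to -0.28; adjusted p = 0.161). On the higher side it belonged to HIS1-3, with 0.41 ± 0.27 (SE; 95% interval -0.20 to 1.02; adjusted p = 0.605). HTA11 measured 29.5, 35.5 and 24.6 FPKM with doxycycline and 51.5, 50.2 and 43.0 in mrpl1-1, a log2 fold change of -0.68 (95% interval -1.08 to -0.29). HTB9 measured 139, 152 and 135 FPKM with doxycycline and 219, 328 and 175 in mrpl1-1, a log2 fold change of -0.71 (95% interval -1.19 to -0.23). For HTA11 and HTB9 every doxycycline value lay below every mrpl1-1 value.

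On the lower side were 30 of 38 genes (48.9% of all genes). Of the 8247 other genes in the histones' length range, 60.8% were lower, with a median log2 fold change of -0.083. The median was -0.39 for the replication-linked genes, -0.025 for H2A.X and H2A.W, -0.25 for H2A.Z and H3.3 and 0.11 for H1, beside 0.0068 for all tested genes. Within the replication-linked genes it was -0.48 for H3.1, -0.44 for H2B, -0.34 for H4 and -0.17 for canonical H2A. The 95% intervals of 24 of 38 genes lay within a 2-fold change in either direction. For AT3G53730 the values against wild type were -0.21 (95% interval -0.56 to 0.14) with doxycycline and 0.44 (95% interval -0.010 to 0.90) in mrpl1-1, from fits that share the wild-type libraries.

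These class values depended on mrpl1-1 replicate 2. Without that library the replication-linked median was -0.14 and that of H2A.Z and H3.3 -0.12. Without wild-type replicate 3 as well, the class medians were -0.14, -0.023, -0.12 and 0.16. Without mrpl1-1 replicate 3, 14 of 38 genes had an unadjusted p under 0.05 on the lower side (9.96% of all genes) and 0 on the higher side (8.10%), and 0 were called. With correction for length the class medians were -0.20, 0.033, -0.094 and 0.13. PCNA1 had the smallest p among DNA replication genes, at -0.44 (adjusted p = 0.511), and KNOLLE among cell division genes, at -0.40 (adjusted p = 0.502). Among root markers RHS13 was called at -2.33 (adjusted p = 0.00974) and EXPA7 at -1.12 (adjusted p = 0.0286), both lower with doxycycline. In mrpl1-1 against wild type all 4 root markers were higher (median log2 fold change 0.52), and 0 were called. EXPA7 separated there, at 8.13, 8.40 and 8.62 FPKM in wild type and 11.4, 12.0 and 10.9 in mrpl1-1.

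Length was examined in each library, since histone transcripts are short and FPKM divides by length. Spearman's rho between a gene's deviation and its transcript length, a description across genes that are not independent, was -0.35 in mrpl1-1 replicate 2. It was 0.16, 0.22 and 0.27 in the doxycycline libraries and between -0.031 and 0.064 in the other 5. Other genes of the histones' length range had a median deviation of 0.16 in mrpl1-1 replicate 2 and of -0.026, -0.040 and -0.054 in the doxycycline libraries. In those same libraries the histone genes had 0.42, -0.14, -0.11 and -0.18. Wild-type replicate 3 differed from that pattern: its histone median was 0.20, its other genes of those lengths had 0.021, and its rho was -0.016.

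The types did not move as a block in the libraries that stood apart. In wild-type replicate 3 the median deviation was 0.33 for H3.1, 0.42 for H3.3, 0.37 for H2A.W and 0.43 for H1, but -0.19 for H4. In mrpl1-1 replicate 2 it was 0.79 for H3.1, 0.71 for H2B and 0.36 for H4, against 0.13 for canonical H2A and -0.063 for H1. The single genes differed as much. In wild-type replicate 3 AT5G10980 stood at 2.38 times and HIS4 at 0.734 times the mean of the other 2 wild-type libraries. In mrpl1-1 replicate 2 AT3G46320 stood at 2.57 times and HTA8 at 0.382 times the mean of the other 2 mutant libraries.

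**Figure D5:**
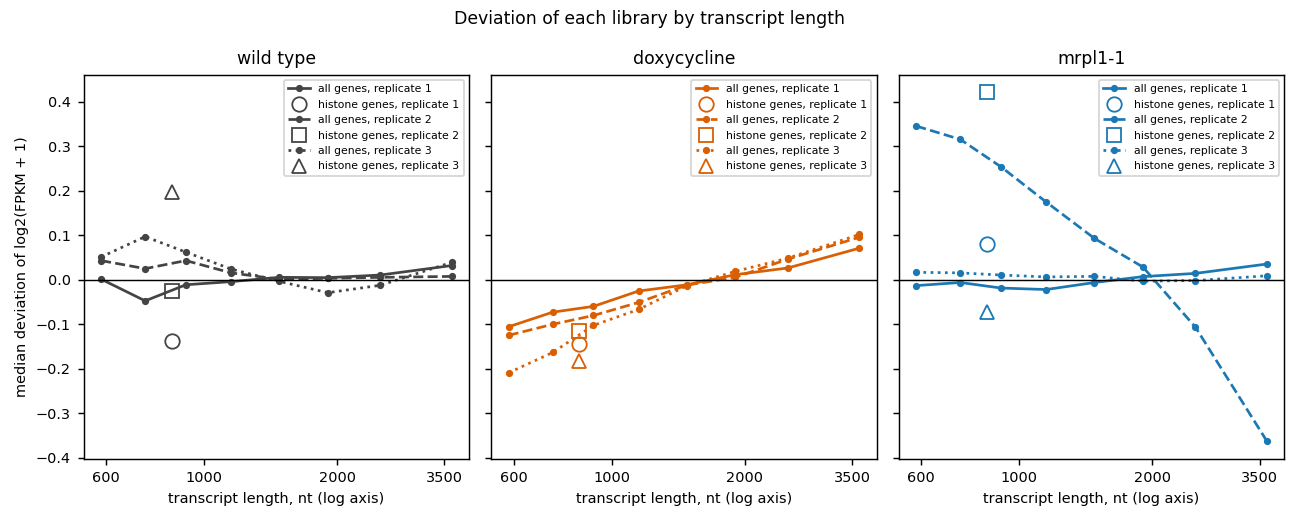
Median deviation of log2(FPKM + 1) from each gene's mean over the 9 libraries by transcript length (log axis, bins from 500 nt), as lines per library, with the median of the histone genes as open symbols at their median length. The doxycycline lines rise with length, mrpl1-1 replicate 2 falls with it, and the histone median of wild-type replicate 3 lies above its own line.

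Near-identical coding sequences could blur the split between genes. Coding sequences were 80.3% to 89.5% identical among H3.1 genes, 78.8% to 98.1% among H4 genes and 78.6% to 88.8% among H3.3 genes. Of the 38 longest transcripts, 24 shared no stretch of 50 nt with another locus of the tables, and 6 shared over 20% of their 50-nt windows, with AT3G27360 the highest at 35.6%. Values of those 6 genes are less certain at the level of the single gene. The H4 genes AT3G45930 and AT3G46320 shared only with each other, so a sum over H4 takes in both. AT3G27360 shared with AT3G27380 as well as the H3.1 gene AT5G10400, and AT1G07660 also with loci outside H4. GAMMA-H2AX shared only with AT1G54680, and HTA12 only with AT5G02570 (HTB10), which sums over their types do not take in. The summed H3.1 FPKM was 772 ± 164 (SD, n = 3) in wild type, 637 ± 27.0 with doxycycline and 918 ± 266 in mrpl1-1. The summed H4 FPKM was 1086 ± 63.2, 1039 ± 74.7 and 1219 ± 194, and the summed H3.3 FPKM 1049.6 ± 218, 910 ± 20.2 and 1034 ± 123, in the same order (SD, n = 3 each). Every doxycycline sum of H3.1 (615 to 667 FPKM) lay below every mrpl1-1 sum (703 to 1215 FPKM). The other group comparisons of these 3 sums overlapped. The 7 H2B genes summed to 885 to 959 FPKM with doxycycline. Every wild-type sum (993 to 1180 FPKM) and every mrpl1-1 sum (987 to 1718 FPKM) lay above these. For H2A.Z the doxycycline sums (187 to 206 FPKM) lay below the mrpl1-1 sums (212 to 346 FPKM) only. Sums of the remaining types overlapped between all groups. The sums were neither tested nor corrected for the length trend.

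The genes lie on all 5 nuclear chromosomes, with 9, 5, 9, 3 and 12 members on chromosomes 1 to 5. Neighbouring members could differ in level. The H3.1 genes AT5G10390 and AT5G10400 are 577 bases apart on the same strand and had wild-type means of 48.2 ± 9.33 and 246 ± 103 FPKM (SD, n = 3). The H2B gene AT2G28720 and the H4 gene HIS4, 1536 bases apart on opposite strands, had 35.7 ± 2.62 and 96.0 ± 16.7 FPKM (SD, n = 3).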

How the data were processed

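RNA of whole seedlings was selected for polyA and sequenced on an Ion Torrent instrument, per the labels' protocols. The authors deposited FPKM values per locus in 2 tables, whose 12 sample columns were all used. FPKM is relative to transcript length and to the library's total, so a change in abundant transcripts moves the other genes. FastQC 0.10.1, Cufflinks 2.2.1 and TAIR10 are named in the submitters' processing notes without their order. The aligner and the strand setting are not given in the sources used here, and genes that overlap or lie antisense to others are uncertain.

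The tables' wild-type columns differed by factors of 0.94057, 0.94058 and 0.94147, and both contrasts to wild type were therefore fitted inside 1 table each. For doxycycline against mrpl1-1 all 9 libraries were fitted with the mutant columns divided by the median factor, 0.94058. Log2(FPKM + 1) of genes averaging 1 FPKM or more was tested with limma 3.58.1 in R 4.3.3, two-sided, with a variance trend and Benjamini-Hochberg adjustment over all genes, called under 0.05. The added 1 shrinks the fold changes of low genes. The fit was tested on simulated data.

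RefSeq (TAIR10.1) gave transcript lengths, promoters, symbols and coordinates for 32810 of the loci, and 747 had no match. These lengths may differ from those the authors used. Depth was read from the steps of low FPKM values in single-isoform genes of 1500 to 4000 nt; it is approximate, so no count test was run.

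The members and lists were chosen with earlier results of these data known. Values per library were named for members called or with the smallest p in each direction and comparison, the highest and lowest wild-type mean of each type, and all H1 and H3.3 genes; of the other lists, each called gene and the smallest p. Other names were chosen after their values were seen. Alternatives tried were pseudocounts of 0.1 and 5, filters of 0 and 5 FPKM, median-ratio and quantile normalization, robust moderation, array weights, a fit with no variance trend, a replicate block, a length correction, transcripts of at least 300 nt, libraries left out, and H2A.X and H2A.W counted as replication-linked.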

Additional observations from a re-analysis of the deposited data

How the results depend on the processing

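No histone gene was called in any of the 3 comparisons under any alternative. The lowest adjusted p of a member ranged from 0.158 to 0.881 for doxycycline against wild type, from 0.512 to 1 for mrpl1-1 against wild type and from 0.0731 to 0.442 for doxycycline against mrpl1-1. For doxycycline against wild type, the class medians over the alternatives ran from -0.22 to -0.080 for the replication-linked genes. They ran from -0.20 to -0.0041 for H2A.Z and H3.3. Those of H2A.X and H2A.W (-0.21 to 0.034) and of H1 (-0.19 to 0.015) reached the other side of 0. In mrpl1-1 against wild type, the median of H2A.Z and H3.3 was 0.21 with array weights and 0.0098 to 0.29 with 1 library left out, the highest without wild-type replicate 3. That of H1 was 0.14 with array weights, 0.18 without wild-type replicate 3 and mrpl1-1 replicate 2, and -0.38 to 0.030 with 1 library left out. In doxycycline against mrpl1-1, the replication-linked median was -0.14 without those libraries and -0.53 to -0.14 with 1 left out. That of H2A.Z and H3.3 was -0.039 with quantile normalization, -0.094 with the length correction, -0.12 without those libraries and -0.36 to -0.12 with 1 left out. The cause was not tested. Restricted to the 250 bases before the start, the telo box count was 0. The GAMMA-H2AX match spans the start and the HTA8 match begins at position 38 after it. With that restriction the octamer count stayed at 10, the hexamer count was 9 and the TATAAA count 18.

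Replicate numbers did not pair the samples: correlations of deviations between libraries of the same number ran from -0.076 to 0.080. With the replicate number as a block, 0 histone genes were called in each comparison. The class medians could not change in that fit, because every group holds each replicate number. At an unadjusted p under 0.05, the 6 genes lower with doxycycline than wild type became 4 with the block or array weights, 3 with quantile normalization, 2 without the trend, 0 with the length correction, and 1 to 7 with 1 library left out (3 without wild-type replicate 3, 2 without wild-type replicate 2 or doxycycline replicate 1, 1 without doxycycline replicate 3). Over all genes the lower share was 4.65% with all libraries and 3.12% to 6.30% in these other fits. Depth limits the lowest members, since 9 genes had under 100 approximate reads in at least 1 library. With 3 libraries a group, the intervals leave room for changes from 0.357-fold to 2.79-fold in mrpl1-1 and from 0.402-fold to 1.69-fold with doxycycline, each against wild type.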

Other observations

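Replicates of the doxycycline group were closer together than those of the other groups, and this held beyond the histone genes. Over 7688 other genes at the members' levels the median coefficient of variation was 8.16% with doxycycline, 14.0% in wild type and 18.4% in mrpl1-1. The leading gene's share of its type in wild type was 73.5% ± 1.26 for HTA9 in H2A.Z, 69.2% ± 0.997 for H2AXA in H2A.X, 65.1% ± 2.10 for AT1G06760 in H1 and 38.7% ± 0.442 for AT4G40030 in H3.3. The SD was the highest of the 9 types in H2B (HTB2, 31.1% ± 5.45) and next in H2A.W (HTA6, 84.2% ± 4.71). Each SD is over n = 3 libraries. Shares were taken over the listed genes only. That of H2B leaves out the H2B gene AT2G37470, at 74.7, 82.1 and 120 FPKM in wild type. H2A.W took 46.1% of the summed H2A, H2A.X, H2A.W and H2A.Z FPKM in wild-type replicate 3 and 41.9% in mrpl1-1 replicate 2, against 33.0% to 39.8% in the other 7 libraries.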
